A study of Mus musculus with 7 samples.

Results

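The ductal cells of the pancreas after caerulein were taken as the cells whose cluster name, given by the depositors, begins with Ductal in 2 caerulein mice. They numbered 572 (334 in mouse 1 and 238 in mouse 2) of 22177 cells from these mice and of 58473 cells in the series. The 1374 ductal cells of 2 WT mice (753 and 621) served as the reference, and the 976 ductal cells of 3 i4F mice as a further treated group. All 7 mice were on a C57BL/6 background and 2 months old, and each library was 1 mouse. The caerulein mice were wild type and received 7 hourly intraperitoneal injections of caerulein (100 µg/kg) on 2 days, with the pancreas taken on day 4. Caerulein is an analogue of the secretagogue cholecystokinin that injures acinar cells and causes an acute pancreatitis. The WT mice drank doxycycline (1 mg/ml) for 7 days, as did the i4F mice, in which doxycycline switches on the reprogramming factors (Oct4, Sox2, Klf4, Myc) from a cassette in Pparg, with the rtTA activator in Rosa26. The treatment label of the caerulein mice names only cerulein, and no vehicle-injected mice were analysed here, so effects of doxycycline and of caerulein cannot be told apart. The names of WT library 1 and of the 3 i4F libraries belong to 1 series (AL), and those of WT library 2 and of both caerulein libraries to another (AM).

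Ductal cells line the tubes that carry digestive enzymes to the gut and add bicarbonate-rich fluid. They are marked by the keratins Krt19 and Krt7, the transcription factor Sox9 and the adhesion molecule Epcam. After injury the pancreatic epithelium can divide and secrete cytokines, and acinar cells can take on ductal genes, a change known as acinar-to-ductal metaplasia.

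Total UMIs (unique molecular identifiers, each marking 1 captured RNA molecule) in the ductal cells came to 5930138 and 4187255 for WT and to 2480678 and 812871 for caerulein mice. The median ductal cell held 5396 and 4624 UMIs in WT and 5590 and 2768 after caerulein. Cell barcodes were not shared between ductal cells of different libraries. Of the ductal cells of the caerulein mice, 11.4% and 8.40% were marked as doublets (droplets with more than 1 cell) by Scrublet, against 5.31% in WT mouse 2. In WT mouse 1 the caller marked 2 of 4327 cells and so did not work there.

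Of all cells of a WT mouse, 17.4% (mouse 1) and 9.82% (mouse 2) were ductal, against 2.21% and 3.38% after caerulein. The means were 13.6% ± 5.36 (SD, n = 2) and 2.79% ± 0.831 (SD, n = 2), and the groups did not overlap (difference -10.8 percentage points, two-sided exact permutation p = 0.333, the smallest that 2 mice against 2 allow). Among non-immune cells, ductal cells took 18.3% and 11.1% in WT against 5.12% and 6.25% after caerulein (difference -9.05 points, exact permutation p = 0.333). For each cell of the cluster named acinar there were 0.883 and 0.677 ductal cells in WT, and 0.217 and 0.218 after caerulein. A share depends on how many cells of the other types were recovered, and loss of ductal cells cannot be told apart from gain or better recovery of other cells.

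The label was checked against its markers in CPM, the UMIs of a gene per 1000000 UMIs of the summed ductal cells. Krt19 stood at 1126 and 911 CPM in WT and 889 and 1095 CPM after caerulein, so the groups overlapped (log2 fold change 0.13 ± 0.30 SE, adjusted p = 0.781 in edgeR's quasi-likelihood test with Benjamini-Hochberg adjustment). Krt7 was 190 and 243 CPM in WT and 875 and 701 CPM after caerulein, above both WT mice without passing the test (edgeR, log2 fold change 2.03 ± 0.46 SE, adjusted p = 0.0518). Sox9 was 475 and 510 CPM in WT and 196 and 204 CPM after caerulein, below both WT mice (edgeR, log2 fold change -1.13 ± 0.36 SE, adjusted p = 0.0954). Epcam did not follow the groups, at 287 and 1525 CPM in WT and 1467 and 288 CPM after caerulein. All 4 markers were thus present in every mouse. When each cell was thinned to 1000 UMIs, Krt19 was seen in 54.5% and 52.3% of WT ductal cells and in 53.3% and 57.8% after caerulein, and Krt7 in 15.4% and 18.5% against 51.1% and 45.0% (without thinning 50.1% and 57.0% against 75.7% and 63.0%). Cells with fewer UMIs were left out of these shares (82 and 49 in WT, 17 and 20 after caerulein).

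Across 11619 genes tested in the ductal cells, 335 (2.88% of the genes tested) were called higher and 75 (0.645%) lower after caerulein than in WT at an adjusted p under 0.05 (edgeR quasi-likelihood test on UMI sums per mouse, all 7 mice in the fit). Both caerulein mice lay above both WT mice in 32.0% of all genes and below them in 37.3%. These calls needed all 4 WT and caerulein mice, since leaving out any of them left 0 to 2 genes higher and 0 lower, and a term for the library name series also left 0 in each direction (1742 genes at an unadjusted p under 0.05, against 3563 without the term). All 335 higher and 75 lower genes kept their sign with that term. They were picked as called from the same mice, so the kept signs are no separate support. All i4F libraries are AL and both caerulein libraries AM, so the term leaves WT mouse 2 as the WT side. It is therefore nearly the same estimate as the next one. Within the AM series WT mouse 2 was the only WT library, so only effect sizes are given. For both caerulein mice against WT mouse 2, the log2 fold change was 5.33 for Lcn2, 5.2 for Mmp7 and 6.89 for Cdk1, described below.

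The gene lists here and below were chosen with earlier results of these data known, so their counts beside all genes are no separate support. Of 27 ductal identity genes, 1 was called higher and 0 lower, close to the 2.88% and 0.645% over all genes, with a median log2 fold change of -0.35 beside -0.07 over all genes tested. Both caerulein mice lay below both WT mice in 15 of the 27 and above in 9, beside 37.3% and 32.0% of all genes. Anxa3, an annexin, was the gene called higher, from 171 and 144 CPM to 931 and 860 CPM (edgeR, log2 fold change 2.68 ± 0.54 SE, adjusted p = 0.0396). Both caerulein mice exceeded both WT mice about equally. Wfdc2, a secreted protease inhibitor of epithelia, was 246 and 267 CPM in WT and 849 and 776 CPM after caerulein, without passing the test. Pkhd1, the fibrocystin gene of the ductal cilium, was 218 and 157 CPM in WT and 44.7 and 54.1 CPM after caerulein. Both caerulein mice lay below both WT mice, and the gene did not pass the test. Spp1 (osteopontin) and Krt18 were abundant in every mouse, with Spp1 at 22757 and 19765 CPM in WT and 24521 and 28740 CPM after caerulein. Of 17 tested genes of bicarbonate and fluid secretion, 18 of tight junctions and polarity and 31 of the primary cilium, 0 were called. Their median log2 fold changes were -0.10, -0.57 and -0.41, beside -0.07 over all genes tested. Both caerulein mice lay below both WT mice in 7, 11 and 15 of them, and above in 5, 3 and 3. Over all genes these shares were 37.3% and 32.0%. Cftr, the chloride channel of the duct, was 77.4 and 52.1 CPM in WT and 40.7 and 68.9 CPM after caerulein, with overlapping groups.

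**Figure D1:**
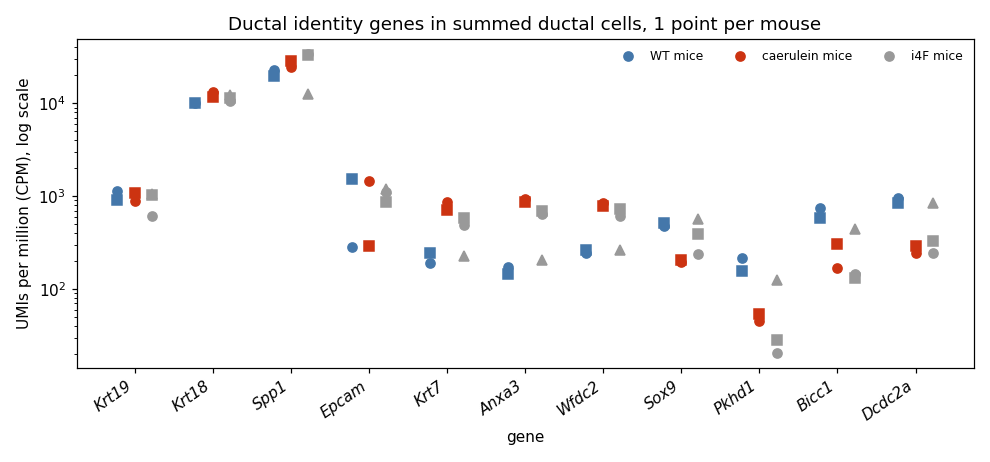
Level of 11 ductal identity genes (CPM, log axis) in the summed ductal cells, 1 point per mouse (circle, square and triangle for replicates 1, 2 and 3; blue WT, red caerulein, grey i4F). Krt19 overlaps between WT and caerulein mice, Anxa3 is higher in both caerulein mice (931 and 860 CPM), Sox9 is lower in both (196 and 204 CPM), and Epcam splits the mice of each group.

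Genes of cell division were higher in the ductal cells of both caerulein mice. Of 44 tested genes of the G2 and M phase, 39 were called higher and 0 lower, and of 38 tested S phase genes 28 were called higher and 0 lower, beside 2.88% and 0.645% of all genes. The median log2 fold changes were 5.21 and 2.85, beside -0.07 over all genes tested, and within the AM series they were 4.87 and 2.85. Cdk1, the kinase that drives entry into mitosis, was 0.337 and 1.43 CPM in WT (2 and 6 UMIs) and 162 and 161 CPM after caerulein (403 and 131 UMIs), a log2 fold change of 7.71 ± 1.20 SE (edgeR, adjusted p = 0.0213). Birc5 (survivin, of the chromosomal passenger complex) was 0.337 and 1.91 CPM in WT and 202 and 191 CPM after caerulein (edgeR, log2 fold change 7.67 ± 1.32 SE, adjusted p = 0.0283). Ube2c, which serves the anaphase-promoting complex, was 2.19 and 3.58 CPM in WT and 304 and 209 CPM after caerulein (edgeR, log2 fold change 6.65 ± 0.94 SE, adjusted p = 0.0162). In all 3 genes the lower caerulein mouse exceeded the higher WT mouse many times over.

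Mki67, which codes for the proliferation antigen Ki-67, was 1.35 and 3.82 CPM in WT and 106 and 124 CPM after caerulein (edgeR, log2 fold change 5.66, adjusted p = 0.0294). Of the replication helicase, Mcm5 was 5.73 and 6.21 CPM in WT and 99.6 and 80.0 CPM after caerulein (edgeR, log2 fold change 4.08, adjusted p = 0.0219). Hells, a chromatin remodeller of S phase, was 2.19 and 3.34 CPM in WT and 81.4 and 76.3 CPM after caerulein (edgeR, log2 fold change 5.00, adjusted p = 0.0104). In thinned cells, Mki67 was seen in 0 WT ductal cells of either mouse and in 5.68% and 9.63% after caerulein. The 0 allows shares of cells with a Mki67 UMI of up to 0.447% and 0.524% at this thinned depth, and does not limit the share of cells that express the gene. Of endothelial cells of the caerulein mice, a further cell type that can divide, 2.0% and 0.847% held a Mki67 UMI and 1.71% and 2.54% a Top2a UMI after thinning. At full depth a Mki67 UMI was seen in 0.664% and 0.483% of WT ductal cells and in 29.3% and 20.6% after caerulein. Top2a, the mitotic topoisomerase, was seen in 0.149% and 0.175% against 8.83% and 6.42% (without thinning 0.664% and 0.966% against 32.6% and 21.4%). These limits and shares carry counting error only. A UMI of 1 or more of the cycling markers Mki67, Top2a, Cdk1 and Birc5 was held by 44.0% and 35.3% of the ductal cells of the caerulein mice and by 1.73% and 1.77% in WT, at full depth.

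The stretch before the starts of the listed cell cycle genes was read from the RefSeq promoter windows (build GRCm38.p6). A window was found for 40 of the 46 G2 and M genes and 28 of the 39 S phase genes. All of these were read, called or not, so the shares below use no value of these data. The part of these motifs in the change after caerulein was not tested. The letters searched, on both strands and with overlaps between motifs allowed, were TTTGAA (the core of the cell cycle homology region), CCAAT (the box bound by NF-Y) and TTTCCCGC or TTTGGCGC (E2F-type sites). In the 250 bases before the start, TTTGAA lay in 42.5% of the G2 and M promoters and 10.7% of the S phase promoters against 16.3% of all 27025 promoters. CCAAT lay in 77.5% and 64.3% against 34.5%, and an E2F-type match in 2.5% and 21.4% against 1.35%. The 140 bases that end 10 bases before the start are shown for Cdk1 (chr10:69352923-69353062, minus strand), Ube2c (chr2:164769779-164769918, plus strand), Top2a (chr11:99024200-99024339, minus strand), Mki67 (chr7:135716390-135716529, minus strand), Mcm5 (chr8:75109359-75109498, plus strand), Birc5 (chr11:117849087-117849226, plus strand), with complete matches in capitals. They are given 5′ to 3′ on the strand of the gene. Birc5 is shown as a gene with a large change and no match in the bases shown.
Cdk1: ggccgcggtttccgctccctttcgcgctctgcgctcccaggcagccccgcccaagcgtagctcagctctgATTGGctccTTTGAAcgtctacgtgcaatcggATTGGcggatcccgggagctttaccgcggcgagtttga
Ube2c: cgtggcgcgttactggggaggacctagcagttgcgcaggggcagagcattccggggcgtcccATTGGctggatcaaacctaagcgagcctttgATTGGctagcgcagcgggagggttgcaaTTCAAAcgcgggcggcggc
Top2a: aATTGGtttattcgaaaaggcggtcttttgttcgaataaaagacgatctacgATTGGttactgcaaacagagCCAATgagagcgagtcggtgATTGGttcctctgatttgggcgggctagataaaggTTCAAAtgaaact
Mki67: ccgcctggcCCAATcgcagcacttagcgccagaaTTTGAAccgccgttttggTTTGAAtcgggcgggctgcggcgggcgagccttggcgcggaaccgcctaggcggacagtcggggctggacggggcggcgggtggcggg
Mcm5: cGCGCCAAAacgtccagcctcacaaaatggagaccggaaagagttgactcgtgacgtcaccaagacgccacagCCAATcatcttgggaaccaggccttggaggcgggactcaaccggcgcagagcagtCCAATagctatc
Birc5: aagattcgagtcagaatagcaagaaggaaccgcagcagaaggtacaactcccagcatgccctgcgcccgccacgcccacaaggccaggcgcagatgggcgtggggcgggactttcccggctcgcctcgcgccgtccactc

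**Figure D2:**
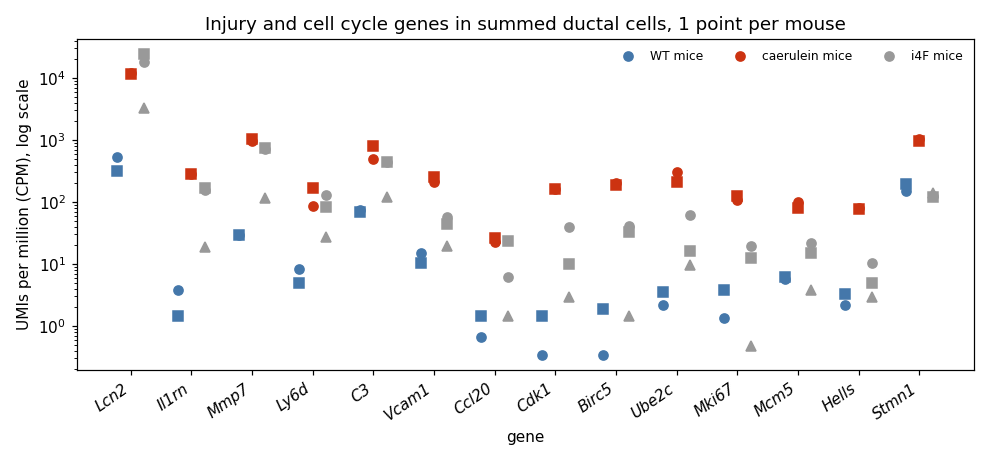
Level of 14 injury and cell cycle genes (CPM, log axis) in the summed ductal cells, 1 point per mouse (symbols and colours by mouse and group: blue WT, red caerulein, grey i4F). The cell cycle genes of both caerulein mice lie above all WT and i4F mice, as for Cdk1 at 162 and 161 CPM, whereas Lcn2 in i4F mice 1 and 2 lies above the caerulein mice.

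Some genes of the acute phase and of injured epithelium were also called higher. Of 16 tested acute phase and antimicrobial genes, 4 were called higher and 1 lower (median log2 fold change 2.85), and of 28 injury-response genes 4 were called higher and 0 lower (median 1.51), beside 2.88% of all genes called higher and 0.645% lower. One of the acute phase genes, Lyz2, is also among the macrophage markers below, and without the cells led by macrophage or collagen genes 3 were called higher and 0 lower. Lcn2, the iron-scavenging lipocalin 2, was 532 and 321 CPM in WT and 11939 and 11644 CPM after caerulein (edgeR, log2 fold change 4.97 ± 0.87 SE, adjusted p = 0.0293). After thinning, Lcn2 was seen in 23.4% and 20.1% of WT ductal cells and in 97.5% and 98.6% after caerulein (without thinning 56.4% and 52.5% against 99.4% and 99.2%), with endothelial cells of the caerulein mice, which should lack it, at 4.57% and 1.69% (median 1420 and 866 UMIs). Il1rn, the interleukin 1 receptor antagonist, was 3.88 and 1.43 CPM in WT and 279 and 285 CPM after caerulein (edgeR, log2 fold change 6.84 ± 1.07 SE, adjusted p = 0.0219). Mmp7, the epithelial protease matrilysin, was 29.5 and 29.6 CPM in WT and 947 and 1047 CPM after caerulein (edgeR, log2 fold change 5.24 ± 0.85 SE, adjusted p = 0.0246). In all 3 genes both caerulein mice lay far above both WT mice, although the WT mice differed from each other for Il1rn and Lcn2.

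Ly6d (8.26 and 5.01 CPM against 85.9 and 167 CPM) and S100a14 (7.93 and 6.21 CPM against 85.9 and 76.3 CPM) were also called higher, as was the protease inhibitor Wfdc18. Pigr, the receptor that carries immunoglobulin A across epithelium, fell from 309 and 335 CPM to 84.7 and 121 CPM (edgeR, log2 fold change -1.50 ± 0.32 SE, adjusted p = 0.0473). Clu (clusterin) was 10552 and 10925 CPM in WT and 31494 and 31123 CPM after caerulein, and did not pass the test (edgeR, adjusted p = 0.0781). Reg3b, an antimicrobial lectin of injured acinar cells, was seen after thinning in 15.1% and 19.7% of ductal cells after caerulein, against 17.7% and 21.2% of endothelial cells of the same mice (without thinning 45.5% and 34.9% against 33.6% and 25.4%). The thinned share in ductal cells was no higher than in endothelial cells, so no expression of Reg3b by ductal cells is read from it.

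Of 33 tested chemokines and cytokines, 4 were called higher and 0 lower, beside 2.88% and 0.645% of all genes. Ccl20, which attracts CCR6-bearing lymphocytes, was 0.675 and 1.43 CPM in WT and 23 and 25.8 CPM after caerulein (edgeR, log2 fold change 4.68, adjusted p = 0.0473). Cxcl16 was 208 and 187 CPM in WT and 465 and 491 CPM after caerulein. Cxcl17 and Ccl9 were the other called members, and the call of Ccl9 was lost without the cells led by macrophage or collagen genes described below (edgeR, log2 fold change 3.02, adjusted p = 0.199). The neutrophil chemokine Cxcl5 was 1.01 and 0.239 CPM in WT and 91.5 and 91.0 CPM after caerulein, without passing the test (edgeR, adjusted p = 0.0506). C3, the central complement component, was 75.0 and 69.0 CPM in WT and 501 and 806 CPM after caerulein (edgeR, log2 fold change 3.34, adjusted p = 0.0298). Vcam1, a ligand of leukocyte integrins, was 15.2 and 10.3 CPM in WT and 206 and 251 CPM after caerulein (edgeR, log2 fold change 4.33 ± 0.52 SE, adjusted p = 0.0121). Of 35 interferon-stimulated genes, 0 were called higher and 1, Ifit1, lower. Both caerulein mice lay below both WT mice in 20 of the 35 and above in 7, beside 37.3% and 32.0% of all genes. The median log2 fold change of the 35 was -0.67, beside -0.07 over all genes. Of 19 genes of MHC class I and peptide loading, 0 were called.

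Among the genes that fell, Sgk1, a kinase induced by serum and glucocorticoids, was 238 and 189 CPM in WT and 29.0 and 38.1 CPM after caerulein (edgeR, log2 fold change -2.51 ± 0.43 SE, adjusted p = 0.0283). The receptor Notch1 was 69.3 and 55.2 CPM in WT and 12.9 and 19.7 CPM after caerulein (edgeR, log2 fold change -1.81, adjusted p = 0.0379). Rasl11a, Gstm7, Clec3b, Wsb1, Pdgfc, Zbtb10, Hs6st2, Pcf11 and Hexim1 were also among the genes with the largest falls. Clec3b, at 41.3 and 73.1 CPM in WT ductal cells and 6.05 and 3.69 CPM after caerulein, was far higher in stellate cells and fell there too, from 2710 and 2587 CPM to 112 and 107 CPM, and the part of stellate RNA in its ductal fall was not tested. Iapp, the islet amyloid peptide, was 56.2 and 366 CPM in WT ductal cells and 4.03 and 3.69 CPM after caerulein. It is itself 1 of 9 islet markers, whose summed level, Iapp included, was 72.7 and 688 CPM in WT and 4.84 and 4.92 CPM after caerulein. The list also held Ins1, Ins2 and Gcg, which were absent from the counts of every condition. Of the 9 markers, 7 were at 0 in both caerulein mice, among them Sst (somatostatin, 2.36 and 158 CPM in WT). A gene absent from the counts of a condition was taken as 0, so such a 0 may not be a measured one. The part of islet RNA in the fall of Iapp was not tested. Of 29 immediate early genes, which tissue digestion can induce, 0 were called (0.645% of all genes were called lower) and the median log2 fold change was -1.56, beside -0.07 over all genes. Both caerulein mice lay below both WT mice in 22 of the 29, beside 37.3% of all genes.

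**Figure D3:**
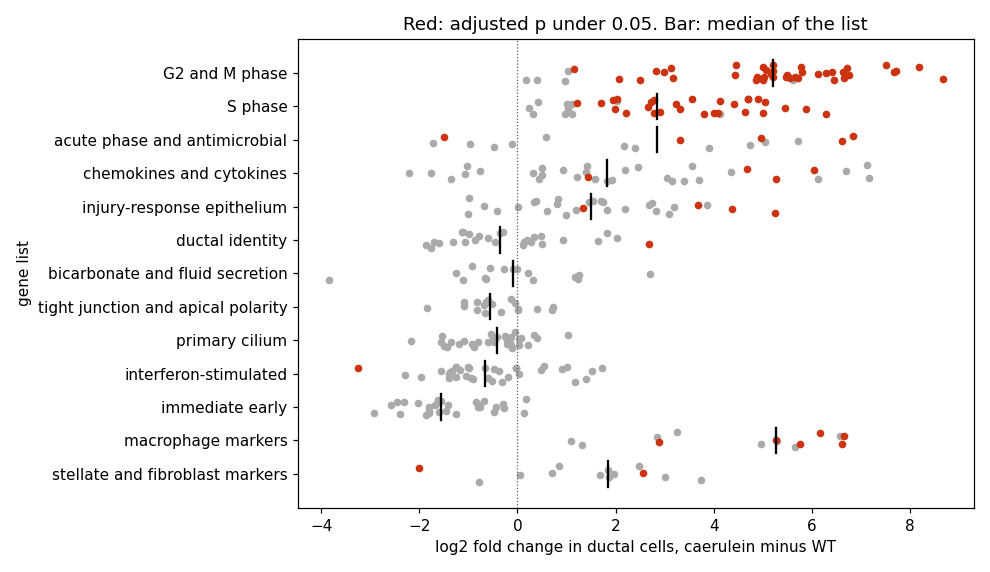
Log2 fold change (x axis, caerulein minus WT, ductal cells) of every tested gene in 13 lists; each point is a gene, red at adjusted p under 0.05, and the bar is the median of the list. The G2 and M phase (median 5.21) and S phase (median 2.85) lists hold most red points, and the ductal identity list centres at -0.35.

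The summed levels of macrophage and of stellate markers also moved with the group. The summed level of 15 macrophage markers in ductal cells was 21.9 and 96.7 CPM in WT and 1924 and 1445 CPM after caerulein, with 0 of 15 at 0 in either caerulein mouse, and 6 of 14 tested members were called higher (Adgre1, Cd68, Fcer1g, Lyz2, Ms4a7 and Tyrobp), beside 2.88% of all genes. The summed level of 13 stellate and fibroblast markers was 1134 and 1226 CPM in WT and 2494 and 2564 CPM after caerulein. Of these 13, Rgs5 was called higher and Dcn (decorin) lower. Dcn was 442 and 565 CPM in WT and 115 and 107 CPM after caerulein. In stellate cells of the caerulein mice Rgs5 was 4.37 and 2.80 CPM, against 210 and 224 CPM in ductal cells. Without the cells led by macrophage or collagen genes, described next, both stayed called (edgeR, adjusted p = 0.0156 and 0.00808). The source of the Rgs5 RNA was not tested. Both caerulein mice lay below both WT mice in 7 of 10 tested acinar digestive enzymes, 7 of 12 other acinar genes and 5 of 7 endothelial markers. They lay above in 1 of each list, beside 37.3% below and 32.0% above over all genes. The median log2 fold changes were -3.80, -1.61 and -1.50. Of these lists 1 enzyme was called higher and 0 genes lower. The source of this RNA was not tested either. Clustering of the 572 cells set apart 50 cells led by Lyz2, C1qa, C1qb and Pf4 (30 marked as doublets) and 26 led by Col3a1, Col1a2, Col1a1 and Dcn (21 marked as doublets). Without these 76 cells, 324 genes were called higher and 68 lower, of which 282 and 44 were among the 335 and 75 called with all cells (316 and 75 of them still tested). Of the lists, 39 G2 and M genes were called higher and 0 of 12 tested macrophage markers were. Lcn2, Mmp7, Il1rn, Anxa3, Vcam1, C3 and Cdk1 stayed past the threshold, with log2 fold changes of 5.15, 5.43, 7.03, 2.83, 4.40, 3.51 and 7.79. Cxcl5 and Krt7 then passed the test (edgeR, adjusted p = 0.0495 and 0.0435). The genes that lost their call included Lyz2, whose log2 fold change went from 6.61 to 3.10 (edgeR, adjusted p = 0.130), and Ccl9, from 6.05 to 3.02 (edgeR, adjusted p = 0.199). Pigr (-1.32), Gstm7 (-3.27), Pdgfc (-2.11) and Zbtb10 (-2.13) also lost it (edgeR, adjusted p = 0.0586, 0.0536, 0.0601 and 0.0529), as did Cd68, Fcer1g, Tyrobp, Pf4 and Cfp, and Adgre1 and Ms4a7 were no longer tested.

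The other 496 cells fell into 3 groups on finer clustering, which are given as a description. A group of 152 cells (108 and 44, or 32.3% and 18.5% of the ductal cells of each mouse) was led by cell cycle genes, with Mki67 seen in 71.1% of its cells and a median of 8146 UMIs. A group of 146 cells (24.3% and 27.3%) was led by Ttr, Ly6d, Pigr and Dmbt1 (seen in 76.0%, 14.4%, 56.2% and 9.59% of its cells), with Spp1 at 50810 CPM, Krt7 at 369 CPM and a median of 2284 UMIs. A group of 198 cells (28.1% and 43.7%) held Krt19 at 1484 CPM and Krt7 at 912 CPM. Its genes of largest fold, Fabp4, Sncg, Ednrb and Gng11, were seen in 2.53%, 8.59%, 1.52% and 6.57% of its cells, so few of the 198 carried them. Lcn2 was nearly level across them, at 12770, 13588 and 12914 CPM. The cycling group held more UMIs per cell than the others, and the part of depth in the grouping was not tested.

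**Figure D4:**
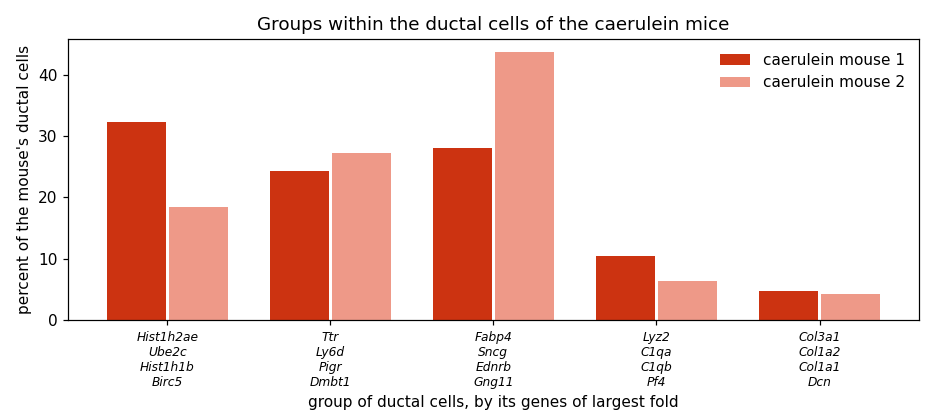
Share of each caerulein mouse's ductal cells (y axis, percent) in 5 groups labelled by their genes of largest fold (x axis); dark bars are mouse 1 and light bars mouse 2. The group led by cell cycle genes holds 32.3% and 18.5%, and the groups led by macrophage and collagen genes hold 10.5% and 6.30%, and 4.79% and 4.2%.

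The change in ductal cells was set against that in the cluster named acinar, with the mouse as a block. The change differed in 394 genes (3.10% of 12704 tested) that moved more upward in ductal cells and 294 (2.31%) that moved more downward. These calls needed all 4 WT and caerulein mice, since leaving out WT mouse 1 left 1 gene upward and 0 downward, WT mouse 2 left 4 and 0, caerulein mouse 1 left 0 and 0 (1887 genes at an unadjusted p under 0.05, against 3025 with all mice), and caerulein mouse 2 left 38 and 11. With any of them left out, at least 392 of the 394 genes and all 294 kept their sign. These genes were picked as called from the same mice, so the kept signs are no separate support. The split depended on the scaling, at 183 and 740 with library totals and at 524 and 213 with DESeq2's size factors, and the median over all genes moved from -0.25 to -0.91 with library totals. Krt19 was 61.2 and 68.5 CPM in WT acinar cells and 921 and 1135 CPM after caerulein, next to the overlapping ductal values above (edgeR interaction, log2 difference -3.34 ± 0.60 SE, adjusted p = 0.0141). Cldn4, a tight junction claudin, was 10.4 and 11 CPM in WT acinar cells and 448 and 644 CPM after caerulein, against 1060 and 767 CPM and 967 and 1068 CPM in ductal cells (edgeR interaction, log2 difference -4.79 ± 0.66 SE, adjusted p = 0.00647). After caerulein the Krt19 levels of the acinar cluster overlapped those of ductal cells (889 and 1095 CPM), whereas Sox9 was 18.8 and 23.1 CPM there against 196 and 204 CPM in ductal cells. Of 27 ductal identity genes, 6 were called as moving less upward or more downward in ductal than in acinar cells. They were Krt19, Krt8, Cldn4, Cdh1, Spp1 and Bicc1, and 0 were called the other way.

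Of 29 genes of endoplasmic reticulum stress, 12 moved more upward in ductal than in acinar cells and 4 more downward, beside 3.10% and 2.31% of all genes. Within ductal cells alone 0 of the 29 were called higher and 1, Ddit3, lower, beside 2.88% and 0.645% of all genes, with a median log2 fold change of -0.19. Sdf2l1, a chaperone cofactor, was 29.0 and 18.4 CPM in WT ductal cells and 113 and 78.7 CPM after caerulein. In acinar cells it was 792 and 513 CPM in WT and 103 and 69.4 CPM after caerulein. WT cells of the acinar cluster were shallow, with a median of 431 and 502 UMIs against 2214 and 1322 after caerulein, and the part of depth was not tested.

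**Figure D5:**
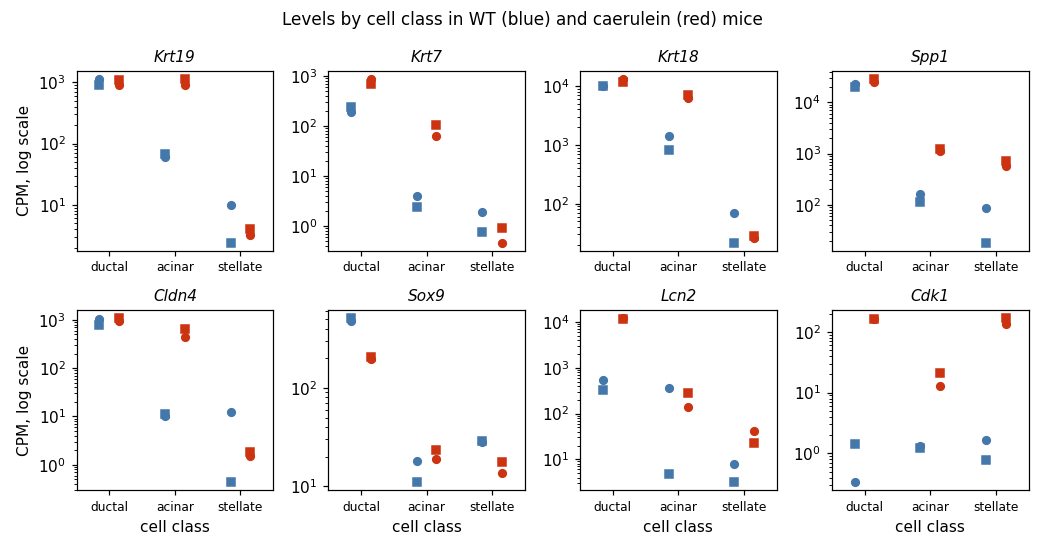
Level (CPM, log axis) of 8 genes in ductal, acinar and stellate cells of the WT (blue) and caerulein (red) mice, 1 point per mouse. Krt19 overlaps between groups in ductal cells and goes from 61.2 and 68.5 CPM to 921 and 1135 CPM in acinar cells, and Lcn2 after caerulein is highest in ductal cells (11939 and 11644 CPM).

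Against stellate cells, the change differed in 148 genes upward (0.988% of 14977 tested) and 125 downward (0.835%), and leaving out any WT or caerulein mouse left 0 to 12 upward and 0 to 6 downward. Cdk1 rose in stellate cells as well, from 1.69 and 0.767 CPM to 135 and 166 CPM, and its change was not shown to differ from that in ductal cells (edgeR interaction, log2 difference 0.71 ± 1.01 SE, adjusted p = 0.759). Of 46 G2 and M genes, 0 moved more upward in ductal than in stellate cells and 1, Cdca3, more downward. Anxa3 was 371 and 346 CPM in WT stellate cells and 165 and 138 CPM after caerulein, the opposite direction to ductal cells (edgeR interaction, log2 difference 3.86 ± 0.67 SE, adjusted p = 0.0277).

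Set directly against the ductal cells of the i4F mice, 41 genes (0.353% of 11619) were called higher after caerulein and 4 (0.0344%) lower. Cell cycle genes again held many calls, with 7 of 38 S phase and 5 of 44 G2 and M genes higher. Hells was 10.3, 4.93 and 2.89 CPM in the i4F mice, below both caerulein mice (edgeR, log2 fold change 3.72 ± 0.47 SE, adjusted p = 0.0254). Stmn1, the microtubule regulator stathmin, was 124, 120 and 138 CPM in the i4F mice and 1030 and 973 CPM after caerulein (edgeR, log2 fold change 2.98 ± 0.24 SE, adjusted p = 0.0059). The antiviral gene Rtp4 was lower after caerulein (edgeR, log2 fold change -2.06 ± 0.32 SE, adjusted p = 0.0448). Of 16 acute phase and antimicrobial, 28 injury-response and 33 chemokine and cytokine genes, 0 were called in either direction, close to the shares over all genes. Il1rn was 154, 170 and 18.8 CPM in the i4F mice, against 279 and 285 CPM after caerulein. Mmp7 was 725, 751 and 115 CPM in the i4F mice, against 947 and 1047 CPM after caerulein. Lcn2 was 18013, 24356 and 3214 CPM in the i4F mice, so that mouse 3 lay well below the other two, and the caerulein mice fell between them. Leaving out either caerulein mouse or i4F mouse 2 left 0 calls in each direction, and leaving out i4F mouse 3 gave 236 higher and 126 lower. All i4F libraries are of the AL series and both caerulein libraries of the AM series, and a term for the series left 0 calls in each direction (edgeR, 578 genes at an unadjusted p under 0.05, against 1964 without the term).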

How the data were processed

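Pancreatic cells of 7 mice (2 WT, 2 caerulein, 3 i4F) were profiled with the 10x Chromium 3′ v3 kit. The deposited values are UMI counts per gene and cell, which the authors made with Cell Ranger on mm10 (GRCm38), with each condition merged in Seurat. Removal of ambient RNA with SoupX and of cells under 150 genes or over 5% mitochondrial UMIs is described for WT and i4F. For the caerulein cells it is not given in the sources used here, though 0 of their 22177 cells lie outside that filter, and whether the deposited counts precede or follow SoupX is not given either. The mitochondrial percent per cell is the value deposited by the authors, and cluster names are theirs. No column belonged to other samples.

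Counts were summed per mouse over cells whose name begins with Ductal (or is acinar or stellate) and tested with edgeR 4.0.16 (quasi-likelihood, TMM, filterByExpr, all 7 mice, Benjamini-Hochberg, called at an adjusted p under 0.05) in R 4.3.3. Differences in change between classes were tested as an interaction with mouse as a block. CPM are UMIs per 1000000 of the summed class. DESeq2 1.42.0, other scalings and left-out cells or mice were alternatives. Doublets were called with Scrublet (scanpy 1.11.5), and cells were thinned to 1000 UMIs for shares of cells. Ductal cells were clustered with Leiden (resolutions 0.2 and 0.5). Shares were compared with exact permutation tests. The code was tested on simulated data. Genes named are list members, plus up to 12 per direction (6 for the other comparisons) with the largest fold change among called genes with a mean log2 CPM of at least 4 and groups that do not overlap, leaving out Gm, Rik and mitochondrial genes, and some genes that met this rule are not reported here. The members and the 38 lists were chosen with earlier results of these data known. Replicate numbers did not pair the mice (correlation of same-numbered WT and caerulein mice -0.49).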

Additional observations from a re-analysis of the deposited data

Results flagged for a closer look

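The change with caerulein differed between ductal and acinar cells by an interaction test (edgeR, quasi-likelihood, Benjamini-Hochberg) in 394 genes upward and 294 downward, and between ductal and stellate cells in 148 upward and 125 downward. Upward here means more upward in ductal cells, by a larger rise or by a smaller fall. Relative to acinar cells, the log2 difference was 6.18 for Fkbp11, 5.81 for Ctgf, 5.76 for Lrg1, 5.62 for Sdf2l1, 5.16 for Gc and 5.06 for Ttr. Fkbp11, a secretory-pathway isomerase, was 2262 and 3085 CPM in WT acinar cells and 123 and 109 CPM after caerulein, against 36.9 and 32.0 CPM and 75.0 and 62.7 CPM in ductal cells. Lrg1 (620 and 26.9 CPM) and Ctgf (3.91 and 56.3 CPM) were unequal in the acinar cells of the WT mice. Ttr did not rise in ductal cells, at 572 and 696 CPM in WT and 298 and 543 CPM after caerulein. In acinar cells it fell further, from 265 and 492 CPM to 9.33 and 12.8 CPM. In the other direction the log2 difference was -5.59 for Serpinb6b, -4.79 for Cldn4, -4.63 for Neurl3, -4.61 for Ctxn1, -4.53 for Klf5 and -4.22 for Cxcl10. Serpinb6b was 5.21 and 0 CPM in WT acinar cells and 229 and 327 CPM after caerulein, against 180 and 146 CPM and 215 and 244 CPM in ductal cells.

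Relative to stellate cells, the log2 difference was 8.63 for Rgs5, 7.79 for Tesc, 5.71 for Sncg, 5.64 for Sbsn, 4.96 for Gsta3 and 4.62 for Sorbs2. Rgs5, a pericyte marker, was 29.2 and 53.5 CPM in WT ductal cells and 210 and 224 CPM after caerulein, against 354 and 176 CPM and 4.37 and 2.80 CPM in stellate cells. Sorbs2 fell in ductal cells, from 748 and 515 CPM in WT to 206 and 293 CPM after caerulein. In stellate cells it fell further, from 45.9 and 27.0 CPM to 0.466 and 0.799 CPM. Gsta3 overlapped between groups in ductal cells (287 and 274 CPM, 193 and 280 CPM) and fell in stellate cells (170 and 166 CPM to 4.16 and 5.46 CPM). Tesc split the ductal mice of each group in the same way as Epcam (17.5 and 223 CPM in WT, 528 and 114 CPM after caerulein). In the other direction it was -3.76 for Syngr1, -3.34 for Wnt4, -3.27 for Sgk1, -3.26 for Rgs2, -3.17 for Adamts9 and -2.97 for Fam13c. Sgk1 was 82.6 and 103 CPM in WT stellate cells and 144 and 154 CPM after caerulein, whereas it fell in ductal cells.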

How the results depend on the processing

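With 2 or 3 mice per group, counts of calls moved strongly. For caerulein against WT (335 higher and 75 lower), DESeq2 gave 831 and 308, no filter 1355 and 1171, only the mice of both groups 1763 and 1663, a replicate block 1443 and 1292, the library name series as a term 0 and 0, and doublets removed 135 lower. A crossed replicate block, added after seeing the data because same-numbered mice deviated oppositely, gave 2534 and 2466. Leaving out 1 mouse gave 0 to 1808 higher and 0 to 1793 lower. The largest counts came without i4F mouse 3, and leaving out i4F mouse 2 gave 106 and 7. The i4F mice lie outside this contrast but share its fit, so a gene that did not pass may reflect their spread. For caerulein against i4F (41 and 4), the same settings gave 175 and 78, 428 and 415, 23 and 1, 63 and 30, and 0 and 0 for the series term; doublets removed gave 112 and 18 (the caller marked 0 cells of i4F mouse 3, as it marked 2 in WT mouse 1, so this removal was uneven), and leaving out 1 mouse 0 to 236 and 0 to 126. For the difference from acinar cells (394 and 294), DESeq2 gave 662 higher, library totals 183 and 740, no filter 936 lower, only the mice of both groups 1476 and 1392, and leaving out 1 mouse 0 to 1336 and 0 to 1322. For the difference from stellate cells (148 and 125), DESeq2 gave 271 and 232, no filter 613 and 917, only the mice of both groups 1751 and 1269, and leaving out 1 mouse 0 to 1602 and 0 to 1156.

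Added after seeing the data, leaving out the groups led by macrophage or collagen genes gave 84 and 19 against i4F and 355 lower against stellate cells. Leaving out cells with a macrophage marker UMI gave 206 higher against WT, 105 and 15 against i4F, and 258 lower against stellate cells. Leaving out cells with a cycling marker UMI gave 7 and 0 against WT and 5 and 1 against i4F, with 9552 genes tested. This setting selects on the measured change itself and so tests nothing about cell cycle genes. Against WT, 191 of the 335 higher genes and all 75 lower genes were still tested. Of these, 7 and 0 kept their call, so the lower calls were lost as well. The part of the smaller number of cells in this loss was not tested. Among uncalled genes, the log2 fold change of Krt19 was -0.041 and of Epcam -0.043 with library totals. With the series term Epcam was -0.65 and Cftr 0.16, and with 1 mouse left out they ranged from -1.53 to 1.85 and from -0.39 to 0.26. Cftr was 0.062 without the groups above and 0.28 without cycling cells. The difference in share of all cells ranged from -14.6 to -7.02 points and of non-immune cells from -12.7 to -5.44 when 1 mouse was left out. The causes were not tested. Ductal UMIs were fewest in i4F mouse 2 (811012) and caerulein mouse 2 (812871), which limits genes of low level.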

Other observations

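Of 25 tested growth arrest and p53 target genes, 1 moved more upward and 7 more downward in ductal than in acinar cells, beside 3.10% and 2.31% of all genes. The split over all genes depended on the scaling, at 183 and 740 with library totals. Cdkn1a, which codes for the cell cycle inhibitor p21, was 847 and 957 CPM in WT ductal cells and 343 and 312 CPM after caerulein, and 245 and 152 CPM in WT acinar cells and 1230 and 1272 CPM after caerulein (edgeR interaction, log2 difference -3.47 ± 0.57 SE, adjusted p = 0.012). Within ductal cells alone, 0 of 24 tested members were called, beside 2.88% of all genes called higher and 0.645% lower. Of 29 immediate early genes, 10 moved more downward in ductal than in acinar cells and 0 more upward, among them Egr1, Klf6 and Fosl2.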
